A study of Mus musculus with 6 samples.

Results

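Semaphorins are a family of secreted and membrane-bound ligands, and plexins are the transmembrane receptors that bind them. A ligand-bound plexin turns off small GTPases of the R-Ras and Rap families through its cytoplasmic domain, and plexins of the B class also recruit activators of RhoA, so that the cytoskeleton and the adhesion of the receiving cell change. In vessels the family is known for guiding endothelial cells (ECs), and in the immune system for contacts between lymphocytes, dendritic cells (DCs) and other myeloid cells. The report covers 9 of the 34099 genes measured, chosen by symbol: the membrane-bound ligands Sema4c, Sema4a, Sema4d and Sema6a, the secreted ligand Sema3f, and the receptors Plxnb1, Plxnb2, Plxnd1 and Plxna2.

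The data are single-cell RNA-seq libraries of liver tumors, 1 library per mouse, from 3 control mice and 3 mice exposed to chronic unpredictable mild stress (stress mice). The paper describes the stress procedure as completed before the tumor cells were implanted. All 6 animals were male wild-type C57BL/6J mice that carried orthotopic tumors of H22, a mouse hepatoma line grown in the liver, so both groups share the tumor and differ in the stress procedure. The tumor cells are thus of 1 implanted line, and the other cell types are those of the host. Cell types were the deposited annotation, which separates 58794 cells into 10 types, and unique molecular identifiers (UMIs) of each gene were summed per mouse and cell type. Levels are given as counts per 1000000 UMIs of that cell type in that mouse (CPM).

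The control libraries held 184798748 to 187728350 UMIs and the stress libraries 149558935 to 158405366, with a median of 7166 to 20478 UMIs per cell. Control files were written by Cell Ranger 9.0.0 and stress files by Cell Ranger 7.1.0, so stress and the version that counted the reads cannot be told apart. Of the 58402 barcode sequences, 386 occurred in more than 1 library. Scrublet called 9.11% of the ECs, 1.40% of the tumor cells, 5.42% of the monocytes and 63.1% of the monocytic myeloid-derived suppressor cells (M-MDSCs) doublets. All 7 EC markers were highest in the cells annotated as ECs. Of the 6 tumor markers, Afp, Krt18 and Cldn6 were highest in tumor cells, whereas Krt8 and Epcam were highest in the cells annotated as hepatic stellate cells (HSCs) and Mki67 in neutrophils. The cells annotated as inflammatory myeloid cells carried 14211 to 32889 CPM of 5 neutrophil markers in sum, and Csf3r and Cxcr2 were highest there. S100a8, S100a9 and Ly6g were highest in the cells annotated as neutrophils, where the 5 markers summed to 75901 to 206513 CPM.

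The 9 genes lie on 7 chromosomes of GRCm38, and 2 pairs of them share a chromosome. Plxnb2, the receptor on which most of the results turn, is at chr15:89155549-89180788 on the minus strand, and its ligand Sema4c is at chr1:36548639-36558349 on the minus strand. Plxna2 lies at chr1:194618218-194816869 on the plus strand, Plxnb1 at chr9:109095389-109119917 on the plus strand, and Sema3f at chr9:107681500-107710475 on the minus strand. Of the others, which are on the minus strand as well, Sema4a is at chr3:88435959-88461182, Plxnd1 at chr6:115954811-115995005 and Sema4d at chr13:51685529-51793747.

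Promoter sequences of RefSeq (GRCm38.p6, 250 bases before to 50 bases after a transcript start) were at hand for 7 members, in 14 windows. Of these windows, 11 (78.6%) held the GC box GGGCGG on either strand, against 35.9% of 32544 promoters of the same length, and none held TATAAA, which 13.6% of all promoters held on either strand. CGGAAG was in 2 of the 14 windows and in 17.0% of all promoters, and CACGTG in 0 of 14 and in 7.17%. The windows held 2 to 36 CpG dinucleotides, with a median over all promoters of 7. The windows of Plxnb2, Plxnd1, Plxna2 and Sema4d are shown, each 5′ to 3′ on the strand of its gene with the GC box or its reverse complement in capitals, because these 4 genes span the patterns described next: a receptor found in most cell types, 2 receptors found almost wholly in ECs, and a ligand of myeloid cells and lymphocytes.
Plxnb2, chr15:89180739-89181038, minus strand: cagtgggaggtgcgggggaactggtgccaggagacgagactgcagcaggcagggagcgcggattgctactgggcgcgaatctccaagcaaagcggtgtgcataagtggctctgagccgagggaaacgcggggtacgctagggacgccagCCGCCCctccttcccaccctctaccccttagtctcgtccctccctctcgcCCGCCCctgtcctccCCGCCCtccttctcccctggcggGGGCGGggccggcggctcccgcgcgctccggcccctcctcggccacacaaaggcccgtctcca
Plxnd1, chr6:115994956-115995255, minus strand: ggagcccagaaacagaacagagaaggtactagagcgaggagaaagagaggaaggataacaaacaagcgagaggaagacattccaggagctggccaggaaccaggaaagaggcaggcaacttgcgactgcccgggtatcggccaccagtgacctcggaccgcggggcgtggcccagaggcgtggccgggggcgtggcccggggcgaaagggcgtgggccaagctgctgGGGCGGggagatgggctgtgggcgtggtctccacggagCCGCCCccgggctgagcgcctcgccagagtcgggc
Plxna2, chr1:194619579-194619878, plus strand: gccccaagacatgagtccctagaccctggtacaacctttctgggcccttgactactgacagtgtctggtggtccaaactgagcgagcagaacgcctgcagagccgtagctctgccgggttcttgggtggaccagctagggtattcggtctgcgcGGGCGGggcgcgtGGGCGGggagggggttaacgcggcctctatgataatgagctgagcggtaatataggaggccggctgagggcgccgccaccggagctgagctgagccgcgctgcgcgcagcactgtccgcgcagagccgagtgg
Sema4d, chr13:51739397-51739696, minus strand: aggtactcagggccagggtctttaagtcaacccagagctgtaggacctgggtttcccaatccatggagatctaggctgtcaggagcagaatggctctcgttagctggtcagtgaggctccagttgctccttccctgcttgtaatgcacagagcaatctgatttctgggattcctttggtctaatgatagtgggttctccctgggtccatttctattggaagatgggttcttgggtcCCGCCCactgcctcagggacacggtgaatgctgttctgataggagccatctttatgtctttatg
Plxnb2 had 2 windows and Sema4d 3. The Plxnb2 window shown is the one at the start of the gene (the other holds 15 CpG dinucleotides), and the Sema4d window is the only one of the 3 with a GC box (the others hold 3 and 2 CpG). All 3 Sema4d windows lie inside the gene, away from its start at position 51793747. The Plxnb2, Plxnd1 and Plxna2 windows shown held 27, 23 and 25 CpG dinucleotides, and the Sema4d window 3, which is thus not a count at the start of that gene. The match of a motif is a description of these letters only.

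Sema4c was also the member for which the study designed RT-qPCR primers. The paper measured it in tumor ECs of mice given indole-3-propionic acid or vehicle. Among the genes examined there, it reported a significant fall for Jam2 alone. That comparison is of the treatment and not of stress. The forward primer (gaagagcaaccagaccgaatg) and the reverse primer (ataggtgccgcagacatacag) matched chr1:36553743-36553938 on the minus strand of GRCm38 and bounded an 85-base amplicon of the spliced transcript. In the transcript Sema4c-201 the forward primer lay in exon 4 and the reverse primer in exon 5, and both ends were in the coding sequence.

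Across the 10 cell types, 5 members were highest in ECs. Sema6a, a ligand known for its binding to A-class plexins, had 818 ± 166 CPM in ECs (SD, n = 6 mice), with a range of 626 to 1037. Its next level was 15.5 ± 20.4 CPM in HSCs, which had at least 10 cells in 4 mice. Plxna2, a receptor for Sema6a and for secreted semaphorins, had 215 ± 27.3 CPM in ECs and 9.51 ± 5.51 in HSCs. Both were thus genes of ECs in these tumors, with all other types far below. Plxnd1, the vascular plexin, had 309 ± 57.8 CPM in ECs and 19.8 ± 6.60 in monocytes. Sema3f had 171 ± 33.7 CPM in ECs and 11.5 ± 3.03 in HSCs, and Sema4c, a ligand of Plxnb2, had 84.4 ± 20.5 CPM in ECs and 14.6 ± 6.24 in natural killer and T (NK/T) cells. For each of these 5 genes ECs exceeded the next type in every mouse compared, and ECs kept that rank without the called doublets.

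The share of UMIs followed from level, depth and cell number together. ECs held a mean of 96.0% of all Plxna2 UMIs of a mouse, 91.1% of Plxnd1, 88.8% of Sema6a and 74.3% of Sema3f. Sema4c was divided, with 48.4% of its UMIs in ECs and 45.5% in tumor cells at a level of 6.84 ± 1.83 CPM. Tumor cells were the most numerous and the most deeply sequenced cells (29638 cells with a median of 27716 UMIs).

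The remaining ligands had their highest levels in immune cells. Sema4d, the semaphorin also known as CD100, had 434 ± 153 CPM in inflammatory myeloid cells, above its 140 ± 17.8 CPM in NK/T cells in 6 of 6 mice. Its level was 127 ± 39.1 CPM in monocytes, which did not stand apart from NK/T cells, and 9.30 ± 4.43 in ECs and 2.60 ± 1.14 in tumor cells. Sema4a, a ligand of immune cells that binds B-class and D-class plexins, had 77.6 ± 33.3 CPM in neutrophils, 69.5 ± 27.0 in monocytes, 51.6 ± 19.2 in inflammatory myeloid cells and 39.5 ± 13.2 in DCs. Neutrophils exceeded monocytes in only 2 of 5 mice, so the first ranks of Sema4a were not separated. Its UMIs were nevertheless most often those of tumor cells, which held a mean of 42.5% (23.5% to 71.2% over mice), against 31.5% in monocytes.

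Plxnb2 was the member spread most widely. It had 74.96 ± 16.1 CPM in HSCs (4 mice), 65.8 ± 7.52 in ECs, 54.2 ± 14.2 in monocytes, 36.6 ± 10.0 in DCs, 34.5 ± 9.12 in tumor cells and 3.14 ± 4.82 in neutrophils. HSCs exceeded ECs in 3 of 4 mice. Tumor cells held 76.9% of all Plxnb2 UMIs. Plxnb1, the other B-class receptor, had 596 UMIs in all, of which tumor cells held a mean of 91.5%. Its highest level was 0.66 ± 0.16 CPM, in tumor cells, it was listed at 0 in B cells and neutrophils, and it had 1 UMI in all HSCs.

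**Figure D1:**
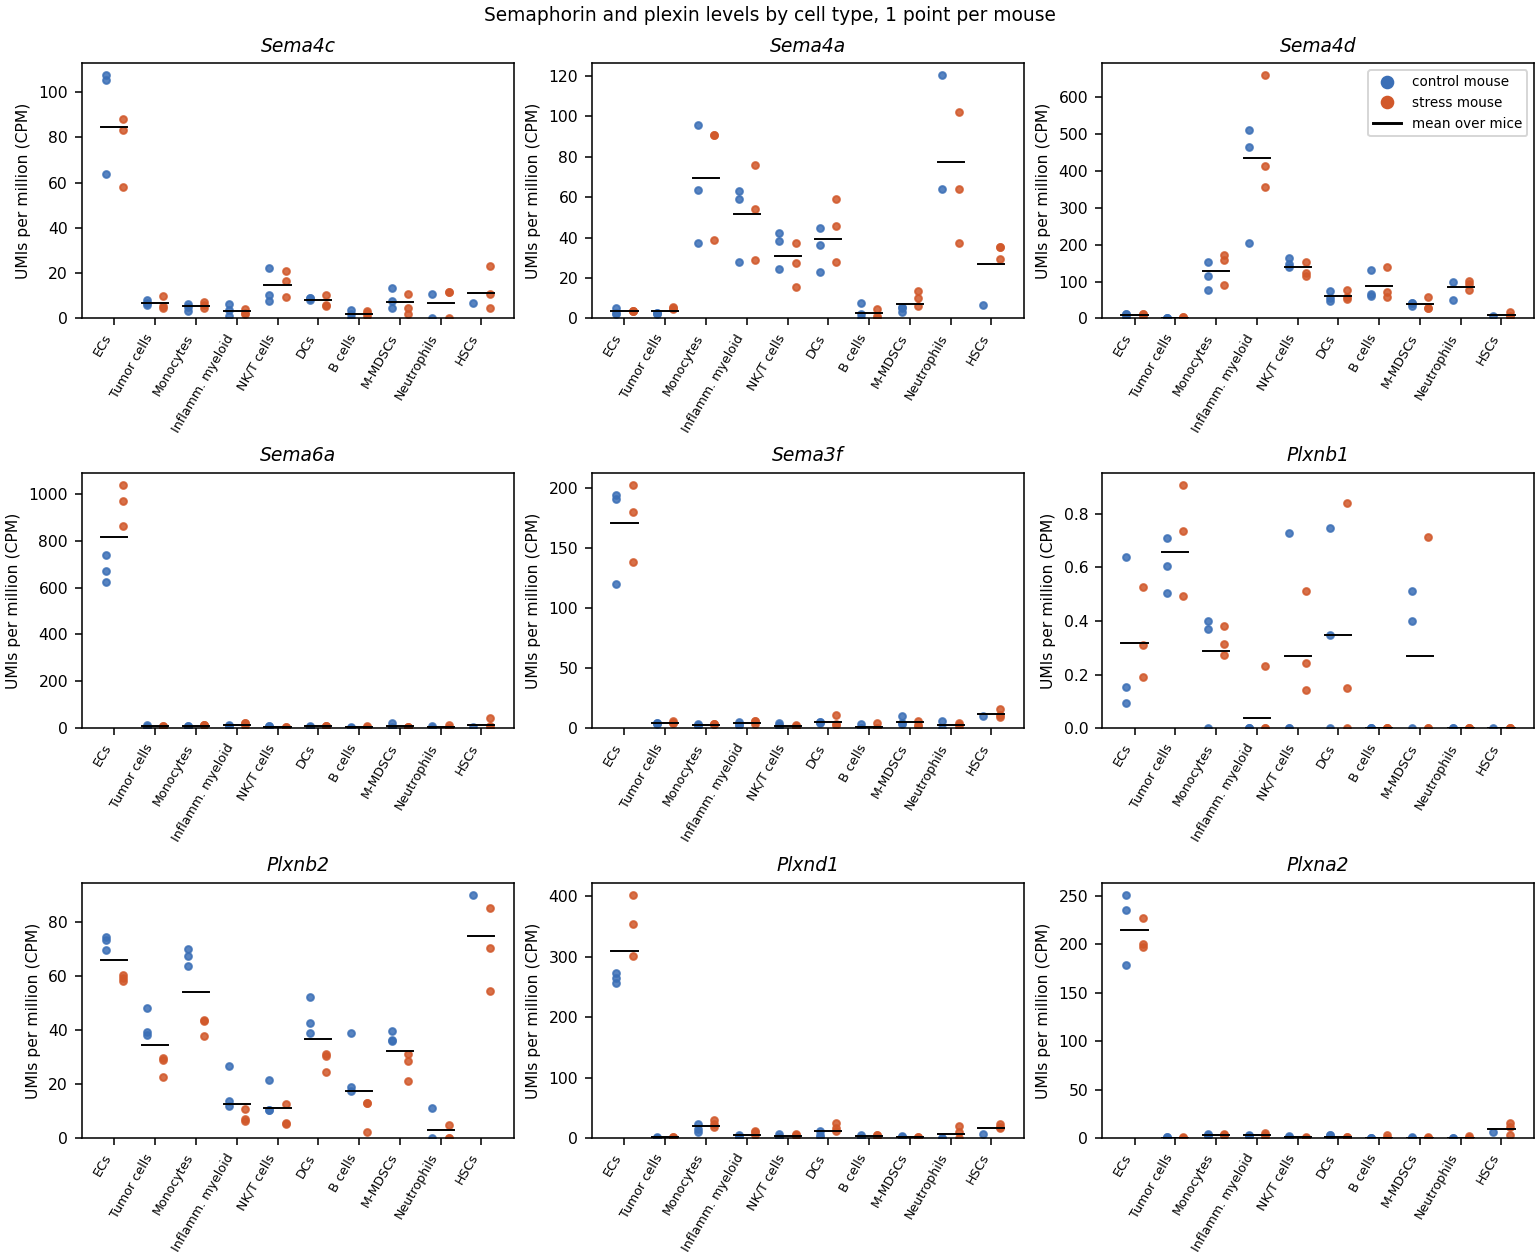
Level of each of the 9 genes (CPM, vertical axis starting at 0) in each annotated cell type (horizontal axis), with 1 point per control or stress mouse having at least 10 cells of that type and a line at the mean. Sema4c, Sema6a, Sema3f, Plxnd1 and Plxna2 peak in ECs, Sema4d in inflammatory myeloid cells, and Plxnb2 is present in most types.

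Over the 48 sums of the 8 tested cell types and 6 mice, the likeness of patterns was measured by Pearson's correlation of log2(CPM + 1). It is a description in which sums of 1 mouse share a library. The 9005 genes with a mean of at least 10 CPM were considered. Genes of the lists used here, cell type markers among them, were left out of the ranking. Sema6a was most like Khdrbs3, Prex2 and Tie1 (r of 0.96 each), and Plxna2 most like Cyyr1 and Col4a1 (both 0.97) and Masp1 (0.97). Sema3f was most like Plpp1 (0.94), Bmpr2 (0.93) and Egfl7 (0.93), Plxnd1 most like Clec1b, Hpgd and Pros1 (0.94, 0.94 and 0.93), and Sema4c most like Epas1, Fzd4 and Strn (0.92, 0.89 and 0.89). Sema4d was most like Cd53, Sorl1 and Elmo1 (0.97 each), Sema4a most like Efhd2 (0.92), Rab8b (0.89) and Atp11b (0.88), and Plxnb2 most like Rin2 (0.89), Parvb (0.88) and Zfp609 (0.85). Plxnb1 had no close companion (Wbp4 0.57, Kpna3 0.56 and Btbd10 0.56). Among the members themselves Sema6a and Plxna2 were the closest pair (r = 0.95).

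ECs were not uniform in these genes. They comprised 7 deposited clusters, of which 6 had at least 10 cells in every mouse. Sema6a had a mean of 1273 CPM in cluster 8 and 1150 in cluster 2, but 270 in cluster 15 and 213 in cluster 16. Plxnd1 ranged likewise from 463 CPM in cluster 2 to 78.3 in cluster 16, and Sema4c from 121 in cluster 18 to 28.0 in cluster 16. Plxnb2 varied less, from 81.3 CPM in cluster 18 to 51.1 in cluster 16. Sema4d was the reverse, at 136 CPM in cluster 24 against 3.01 to 6.31 in the 5 larger clusters. In cluster 24, however, 89.1% of the cells were called doublets, and in cluster 16, whose median of 14860 UMIs was the highest of the EC clusters, 47.3% were. Cluster 15 was the shallowest, with a median of 1212 UMIs.

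The next comparison asked which members differed in ECs between stress and control mice. By edgeR's quasi-likelihood test with Benjamini-Hochberg adjustment over 14090 genes, 0 of the 8 members tested passed an adjusted p of 0.05, where 0.213% of all genes did (30 genes, and 2205 at an unadjusted p under 0.05). With 1 mouse left out, the genes called in ECs ranged from 3 higher and 0 lower (without control replicate 1) to 22 higher and 24 lower (without control replicate 2), again with 0 members. DESeq2 called 1 of the members, Sema6a, and 2.46% of 14968 genes (166 higher and 202 lower). The groups did not overlap in CPM for 3 of the 8 members, against 22.8% of all genes. The median log2 fold change (stress minus control) was 0.01 over the members and -0.01 over all genes. Plxnb1, at 0.09 to 0.64 CPM, was too low to be tested. In such sums fewer cells with a transcript and fewer transcripts per cell cannot be told apart. Shares of cells with a UMI are given further on.

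Sema6a had 626, 673 and 737 CPM in ECs of the 3 control mice and 864, 969 and 1037 CPM in those of the 3 stress mice. Every stress mouse was above every control mouse. The means were 679 ± 55.9 and 957 ± 87.4 CPM (SD, n = 3 each), a log2 fold change of 0.47 ± 0.13 (SE) with an adjusted p of 0.176 in edgeR and 0.047 in DESeq2. Without cluster 16 the log2 fold change was 0.32, and without the called doublets 0.39. The 7 EC markers summed to 5296 to 6756 CPM in ECs of control mice and 7119 to 7473 in those of stress mice. The 6 DC markers, of which Clec9a and Zbtb46 were highest in ECs, summed to 178 to 254 CPM in control and 259 to 352 in stress ECs. The part of either list in the EC differences was not tested.

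Plxnd1 had 273, 257 and 266 CPM in control ECs and 354, 302 and 403 CPM in stress ECs, so that these groups did not overlap either. Its log2 fold change was 0.39 ± 0.13 (SE; edgeR adjusted p = 0.245), and it was 0.25 without cluster 16, over 1.5 times smaller. Plxnb2 went the other way, with 73.2, 74.6 and 69.7 CPM in control ECs and 58.0, 60.2 and 59.2 CPM in stress ECs. The means of Plxnb2 were 72.5 ± 2.51 and 59.2 ± 1.09 CPM, all stress mice were below all control mice, and the log2 fold change was -0.32 ± 0.08 (SE; edgeR adjusted p = 0.165).

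The other ligands and Plxna2 showed overlapping groups in ECs. Sema4c had 107, 64.0 and 106 CPM in control and 87.9, 58.1 and 83.3 CPM in stress mice. Its log2 fold change was -0.30 ± 0.24 (SE; edgeR adjusted p = 0.587), the spread within each group exceeded the difference, and leaving out 1 mouse gave -0.50 (without control replicate 2) to -0.12 (without stress replicate 2). Sema3f had 191, 120 and 195 CPM against 203, 139 and 180, and Plxna2 had 235, 179 and 251 CPM against 199.98, 197 and 227. Neither differed beyond the spread between mice, with edgeR adjusted p-values of 0.977 and 0.739. Sema4a had 2.001, 5.03 and 2.60 CPM in control and 3.92, 3.86 and 3.74 in stress ECs, and Sema4d had 3.18, 12.1 and 12.4 against 4.11, 11.1 and 12.97. The sign of the Sema4a, Sema4d and Sema3f differences turned when the called doublets were left out, so no direction is given for them.

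**Figure D2:**
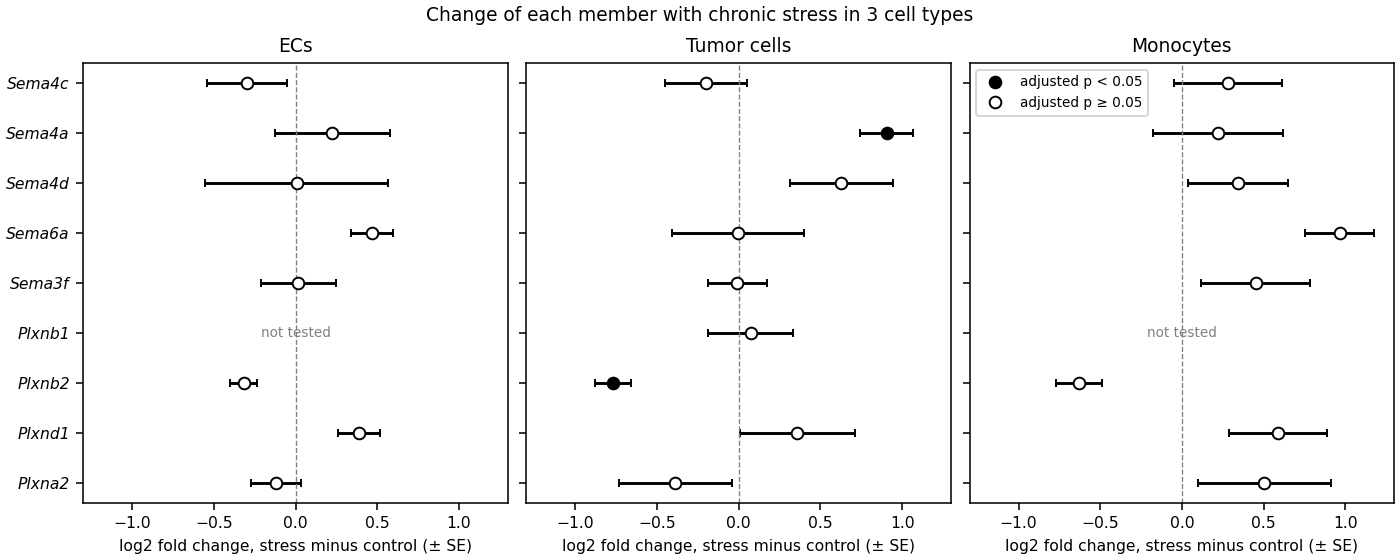
log2 fold change of each member (horizontal axis, stress minus control, with its SE as a bar) in ECs, tumor cells and monocytes, from edgeR. Filled points passed an adjusted p of 0.05, which only Sema4a and Plxnb2 in tumor cells did, and members too low for the test are marked as not tested.

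Within the EC clusters, Plxnb2 was lower in all stress than in all control mice in 5 of 6 clusters, the exception being cluster 15, as for 0.852% of the genes tested in ECs in at least as many clusters. Sema6a was higher in all stress mice in 4 of 6 clusters (1.55% of genes in at least as many) and Plxnd1 in 3 of 6 (4.27%), whereas the groups overlapped for Sema4c in all 6. The clusters share their mice, so these counts are descriptions.

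**Figure D3:**
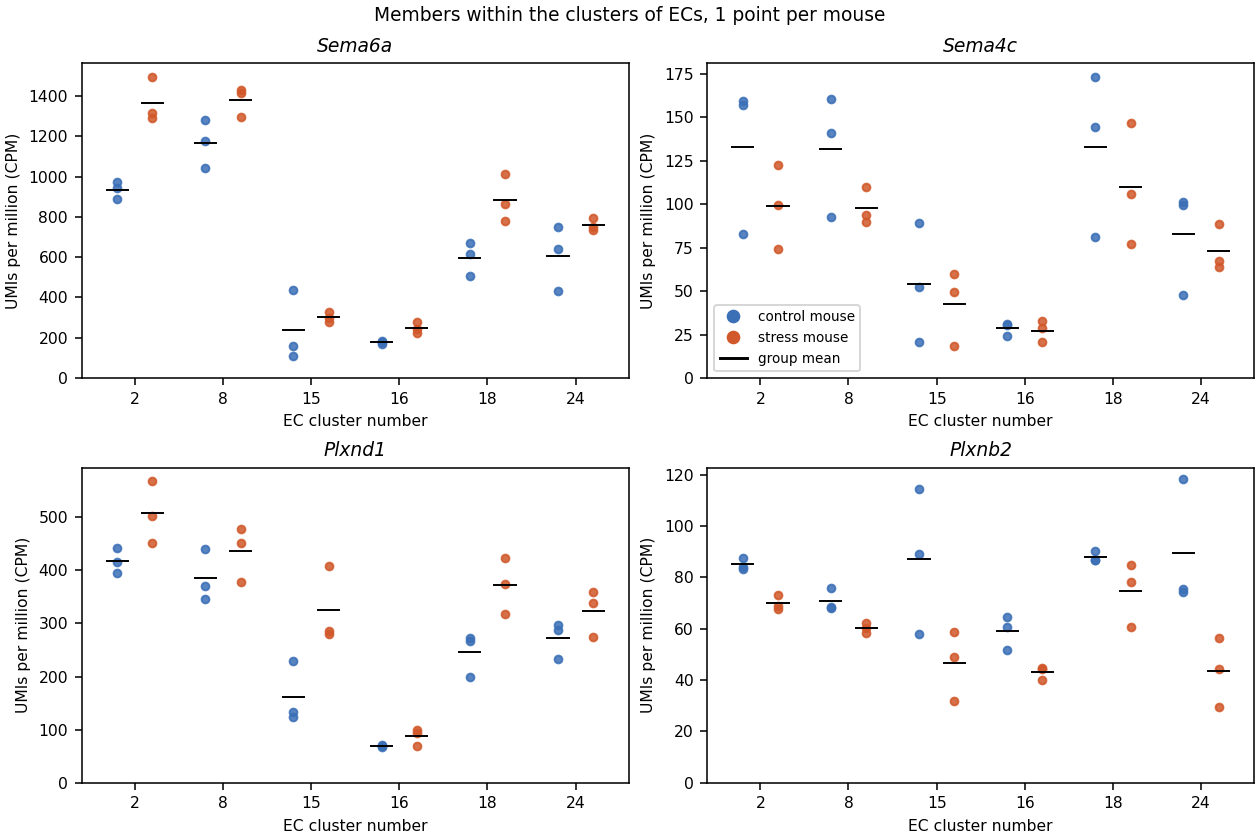
CPM (vertical axes from 0) of Sema6a, Sema4c, Plxnd1 and Plxnb2 in the 6 EC clusters with at least 10 cells in every mouse, with 1 point per mouse and a line at each group mean (n = 3). Sema6a is low in clusters 15 and 16, and Plxnb2 is lower in the stress mice in each cluster but 15, where the groups overlap.

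In tumor cells the same question gave 2 calls among the 9 members, against 21.4% of the 18856 genes tested. Leaving out 1 mouse kept both calls, while the genes called ranged from 735 higher and 456 lower of 19390 without control replicate 3 to 2968 higher and 2822 lower of 19354 without control replicate 2. The groups did not overlap for the same number of members, 2, against 38.3% of all genes. The median log2 fold change was -0.0026 over the members and -0.01 over all genes.

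Plxnb2 fell in tumor cells. It had 39.1, 48.3 and 38.1 CPM in control mice and 22.7, 29.1 and 29.6 CPM in stress mice, and no stress mouse reached the lowest control mouse. The means were 41.8 ± 5.61 and 27.1 ± 3.80 CPM, and the log2 fold change was -0.77 ± 0.11 (SE; edgeR adjusted p = 0.0064). All stress mice were below all control mice in 8 of the 10 tumor clusters, as for 1.99% of genes in at least as many, and the call was kept when any 1 mouse was left out, with log2 fold changes of -0.83 to -0.68.

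Sema4a rose in tumor cells, from a low level. It had 2.25, 2.73 and 2.65 CPM in control mice and 5.31, 4.55 and 5.87 CPM in stress mice, without overlap. The log2 fold change was 0.91 ± 0.16 (SE; edgeR adjusted p = 0.011), it was 0.82 to 1.03 when any 1 mouse was left out, and all stress mice were above in 8 of 10 clusters (2.76% of genes in at least as many). Markers of types where Sema4a was high had overlapping sums in tumor cells. The 7 monocyte markers summed to 9.04 to 18.2 CPM in control and 11.1 to 16.3 in stress mice. The 5 neutrophil markers had 6.87 to 21.9 and 4.56 to 46.3 CPM, and the 6 DC markers 18.5 to 29.6 and 23.5 to 36.7. Their median log2 fold changes in tumor cells were above 0, at 0.39 for monocyte, 0.51 for neutrophil and 0.57 for DC markers. The 7 EC markers summed to 21.5 to 27.0 CPM in control and 28.7 to 40.3 in stress mice, with Pecam1 higher and Eng lower among those past the threshold. The part of any of these cell types in the changes of tumor cells was not tested.

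The other 7 members did not pass the test in tumor cells. Sema4d had 1.25, 2.48 and 2.02 CPM against 2.12, 3.20 and 4.53 (log2 fold change 0.63, 0.34 to 0.83 when any 1 mouse was left out, edgeR adjusted p = 0.187), and Sema4c 6.77, 8.18 and 5.93 CPM against 4.82, 5.55 and 9.75. The groups overlapped for each of the 7.

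In monocytes 0 of 8 members tested passed in edgeR, where 0.122% of 12251 genes did (15 genes, with 1470 at an unadjusted p under 0.05), and DESeq2 called 0 members and 1.16% of 14479 genes. With 1 mouse left out the genes called ranged from 3 higher and 0 lower (without control replicate 1 or 3) to 37 higher and 27 lower (without control replicate 2). The groups did not overlap for 3 members, against 18.0% of all genes. Plxnb2 had 69.9, 67.4 and 63.6 CPM in control monocytes and 37.7, 43.4 and 43.6 CPM in stress monocytes. The gap between the groups was several times the spread within them, with means of 66.9 ± 3.20 and 41.5 ± 3.36 CPM. The log2 fold change was -0.63 ± 0.14 (SE; edgeR adjusted p = 0.179), and all stress mice were below all control mice in each of the 3 monocyte clusters, as for 1.22% of genes.

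Sema6a had 7.59, 8.87 and 5.93 CPM in control and 13.5, 14.4 and 14.5 CPM in stress monocytes, without overlap (log2 fold change 0.97 ± 0.21, edgeR adjusted p = 0.165). Without the called doublets the log2 fold change was 0.05. Sema3f, with 1.60, 3.20 and 2.97 against 3.57, 3.78 and 3.42 CPM, did not overlap and did not pass (edgeR adjusted p = 0.611). Sema6a was highest in ECs, and the 7 EC markers summed to 99.5 to 149.6 CPM in control and 146.04 to 195 in stress monocytes, with overlapping groups. Markers of other types moved with stress in these sums: 6 NK/T markers had 1.60 to 33.8 CPM in control and 37.7 to 72.7 in stress monocytes, and 4 hepatocyte markers 0 to 1.48 and 11.2 to 18.7. The 5 HSC markers, from a type with high Plxnb2, had 2.23 to 3.33 CPM in control and 3.46 to 21.7 in stress monocytes, with 1 of the 5 at 0. The 5 neutrophil markers were lower, at 462 to 586 CPM in control and 87.7 to 332 in stress monocytes. The part of these cells in the monocyte differences was not tested.

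Plxnb2 was lower in stress mice in every cell type where it was tested. Its log2 fold change was below 0 in 7 of 7 types, as for 16.6% of the 8043 genes tested in those types (the median gene was below 0 in 4). All stress mice were below all control mice in 6 of the 7 types, as for 1.39% of those genes, where the median gene had 0 such types. The types share their 6 libraries and are therefore not independent of each other. Sums of other types also carried the 6 tumor markers. These had 217 to 291 CPM in control and 114 to 290 in stress ECs. In monocytes they had 142 to 293 and 118 to 236 CPM. The part of tumor-cell transcripts in this count of types was not tested.

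In DCs Plxnb2 had 38.9, 52.1 and 42.6 CPM in control and 30.2, 24.4 and 31.1 CPM in stress mice (edgeR log2 fold change -0.58 and adjusted p = 0.145). In inflammatory myeloid cells it had 26.8, 13.5 and 11.8 CPM against 6.96, 10.9 and 6.22 (-0.92, edgeR adjusted p = 0.994), and in M-MDSCs 36.1, 39.8 and 36.3 CPM against 21.3, 28.5 and 31.2 (-0.45, edgeR adjusted p = 0.574). The groups did not overlap in these 3 types, and most M-MDSCs were called doublets. Markers differed between the groups in the same sums. In DCs the 6 NK/T markers summed to 0 to 32.9 CPM in control and 43.8 to 88.2 in stress mice, and the 6 DC markers to 1901 to 2501 and 3489 to 3770. In M-MDSCs the 6 tumor markers summed to 593 to 716 CPM in control and 732 to 891 in stress mice. In tumor cells themselves they summed to 751 to 785 and 817 to 1008 CPM. They had 491 to 598 CPM in control and 350 to 492 in stress DCs, with overlapping groups. In inflammatory myeloid cells they had 131 to 503 and 65.0 to 274 CPM, which overlapped as well. The 5 HSC markers in M-MDSCs summed to 2.55 to 2.79 and 3.56 to 8.73 CPM, and the 4 hepatocyte markers to 0 to 0.51 and 0.62 to 1.52. In inflammatory myeloid cells the 4 hepatocyte markers summed to 0 to 0.32 CPM in control and 1.84 to 7.89 in stress mice. The part of these cells in the Plxnb2 values was not tested. NK/T cells were the exception, with 10.2, 21.6 and 10.4 CPM against 5.64, 12.7 and 5.33 and overlapping groups. In B cells, where Plxnb2 was too low for the test, it had 18.98, 38.9 and 17.6 CPM in control and 2.34, 13.1 and 12.9 CPM in stress mice.

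**Figure D4:**
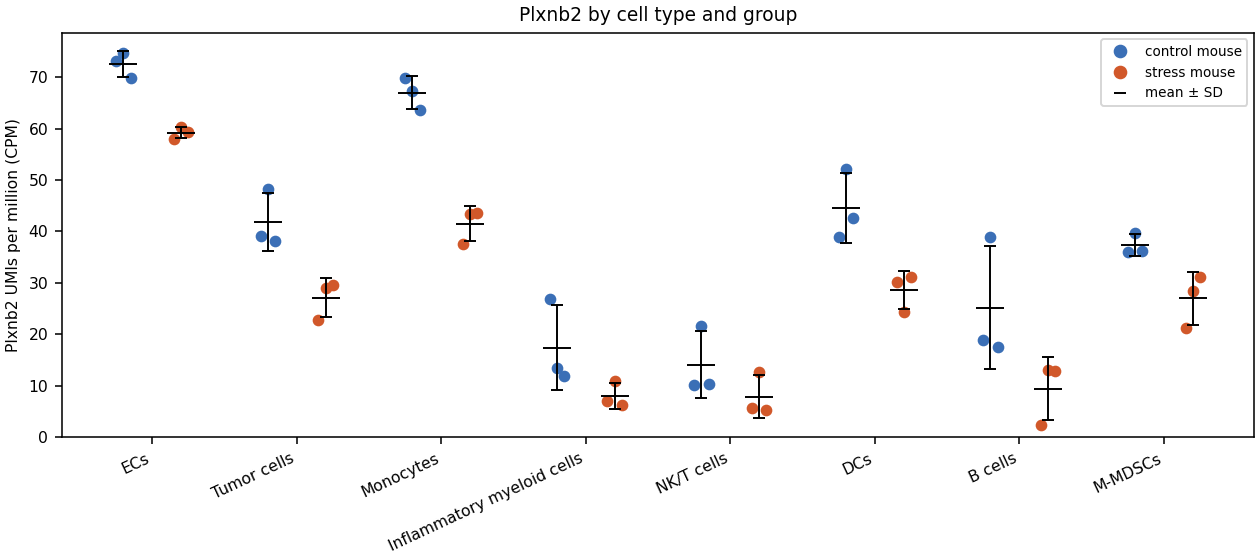
Plxnb2 level (CPM, vertical axis from 0) by cell type and group, with 1 point per mouse and the mean ± SD of each group (n = 3). The stress mice lie below the control mice in ECs, tumor cells, monocytes, inflammatory myeloid cells, DCs, M-MDSCs and B cells (not tested), and overlap with them in NK/T cells.

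Whether the Plxnb2 difference was larger in one type than in another was tested as an interaction in edgeR, with the mouse as a term. The log2 fold change in tumor cells was 0.36 lower than in ECs, a difference of -0.36 ± 0.11 (SE; unadjusted p = 0.0097 and adjusted p = 0.270 by edgeR's quasi-likelihood test). The difference of monocytes from ECs was -0.37 ± 0.14 (SE; unadjusted p = 0.030 and adjusted p = 0.555 by edgeR's quasi-likelihood test). None of the 9 members tested passed in tumor cells against ECs, where 0.130% of 19199 genes did, and none of 8 in monocytes against ECs, where 0% of 15107 did. With 1 mouse left out, the genes called in tumor cells against ECs ranged from 0 of 19644 (without control replicate 1) to 258 of 19712 (without control replicate 2). No member was among them. The Plxnb2 and Sema4a calls of tumor cells are thus not shown to be particular to them.

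In the other 5 tested types no member was called: 0 of 5 members in inflammatory myeloid cells (0% of all genes called), 0 of 6 in NK/T cells (0.857%), 0 of 7 in DCs (2.64%), 0 of 1 in B cells (0.483%) and 0 of 3 in M-MDSCs (0.561%). With 1 mouse left out, genes called in DCs ranged from 58 higher and 7 lower (without stress replicate 3) to 245 and 109 (without control replicate 2). NK/T cells had 26 and 12 (without control replicate 1) to 85 and 40 (without stress replicate 2). B cells had 6 and 0 (without control replicate 3) to 17 and 23 (without control replicate 1). M-MDSCs had 11 and 14 (without control replicate 3) to 51 and 39 (without control replicate 2). The largest differences of members in these 5 types were those of Plxnd1, with 1.77, 11.8 and 5.24 CPM in control and 15.96, 11.8 and 24.3 CPM in stress DCs (log2 fold change 1.24, edgeR adjusted p = 0.154), and with 1.96, 5.41 and 0.64 against 4.64, 9.86 and 11.1 CPM in inflammatory myeloid cells (1.97, edgeR adjusted p = 0.994). Plxnd1 in DCs passed only when genes with low counts were kept (adjusted p = 0.0084 in edgeR), and without the called doublets its log2 fold change was 0.78. Leaving out 1 mouse gave 0.89 to 2.14 in DCs, and 1.44 to 3.16 in inflammatory myeloid cells, where Plxnd1 was too low for the test without stress replicate 3. The 7 EC markers summed to 55.3 to 59.7 CPM in control and 56.3 to 116.8 in stress DCs, and to 60.7 to 116.8 and 51.1 to 209 in inflammatory myeloid cells. In DCs the 6 DC markers summed to 1901 to 2501 CPM in control and 3489 to 3770 in stress mice, and the 6 NK/T markers to 0 to 32.9 and 43.8 to 88.2. The part of these markers in the Plxnd1 values was not tested.

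The genes that work with the members were read from lists of 15 other semaphorins, 7 other plexins and neuropilins, 10 co-receptors or partners of plexins, and 25 intracellular effectors. In ECs 0 of 10, 0 of 6, 0 of 7 and 0 of 25 tested genes passed in edgeR, against 0.213% of all genes. Among the other plexins and neuropilins, 4 of the 6 tested had all stress above all control ECs, against 22.8% of all genes that did not overlap in either direction: Plxnc1 (928 ± 142 against 1528 ± 148 CPM), Plxna4 (71.9 ± 1.504 against 110 ± 22.3), and the co-receptors Nrp1 (191 ± 33.0 against 259 ± 11.8) and Nrp2 (227 ± 8.49 against 278 ± 19.1). These 4 were named after their values were seen, and their edgeR adjusted p-values were 0.133 to 0.284. In the other lists the EC groups did not overlap for 0 of 10 semaphorins, 3 of 7 partners and 5 of 25 effectors. In monocytes 0 of 6, 0 of 5, 0 of 8 and 0 of 24 passed, against 0.122% of all genes.

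In tumor cells 0 of 14 other semaphorins and 0 of 6 other plexins and neuropilins passed, while 2 of 9 partners and 4 of 25 effectors fell and none rose. Of all 18856 genes tested there, 21.4% were called in either direction, 2258 higher and 1783 lower. Erbb2, a receptor tyrosine kinase that associates with B-class plexins, fell from 11.9 ± 0.64 to 8.86 ± 0.94 CPM (log2 fold change -0.56, edgeR adjusted p = 0.016), and Gipc1, an adaptor of plexins, from 125 ± 11.8 to 84.9 ± 12.2 CPM (-0.70, edgeR adjusted p = 0.014). Of the effectors, Rras fell from 60.9 ± 3.78 to 49.1 ± 4.80 CPM and Rras2 from 105 ± 0.42 to 89.9 ± 8.44, both GTPases of the R-Ras family. Mical3, of a family of actin-oxidizing enzymes, fell from 34.1 ± 0.27 to 30.3 ± 1.34 CPM, and Cdk5, a kinase of semaphorin signaling in neurons, from 23.7 ± 1.81 to 18.7 ± 0.51. The log2 fold changes of these 4 effectors were between -0.49 and -0.32.

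Each cell was also thinned to 1000 UMIs, and the share of cells with at least 1 UMI was compared between the groups. The test was a two-sided exact permutation test over mice, in which 3 against 3 mice cannot go below p = 0.10. For a gene with few UMIs per cell at that depth, the share follows the mean level. It therefore cannot tell fewer cells with the transcript from fewer transcripts per cell. After thinning, 8.34 ± 0.27% of control ECs and 5.88 ± 0.48% of stress ECs had a Plxnb2 UMI (exact p = 0.10, adjusted 0.45). The corresponding values were 6.58 ± 0.53% and 4.46 ± 0.47% in monocytes (exact p = 0.10, adjusted 0.90). In both types every stress mouse was below every control mouse, and no adjusted p passed. Tumor cells had 4.10 ± 0.77% and 2.82 ± 0.58% for Plxnb2.

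For Sema6a the share of ECs was 55.1 ± 1.61% in control and 59.7 ± 0.84% in stress mice after thinning (exact p = 0.10), but 88.6 ± 2.36% and 85.1 ± 3.38% with all UMIs and all cells. With all UMIs in only the cells kept for thinning, an alternative added after seeing the data, it was 90.6 ± 2.84% and 89.5 ± 2.22%. The groups overlapped in both unthinned shares, whose means go against the CPM. Most ECs of both groups had a UMI there, so these shares had little room to rise, and no order is read from them. The share of ECs with a Sema4c UMI after thinning was 12.0 ± 3.15% and 8.63 ± 2.57%, with overlapping groups (exact p = 0.30). Cells under 1000 UMIs were left out, 205 of 5582 control and 405 of 5851 stress ECs and 51 of 2417 control and 38 of 3843 stress monocytes. With all UMIs, 25.02% of the monocytes (median 5291 UMIs) had a Plxnb2 UMI, against 2.29% of the neutrophils (median 5394 UMIs), where Plxnb2 was lowest.

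For communication between ECs and monocytes, 8 ligand-receptor pairs of the members were scored in both directions, 16 in all. The value of a pair in a mouse was L × R / (0.5 + L × R), with L and R the trimean over cells of log-normalized expression of ligand and receptor. The expression was first divided by its largest value over all genes, cells and mice. From ECs to monocytes, Sema4c-Plxnb2 had values of 0.0013, 0.00099 and 0.0014 in the control mice and 0 in all 3 stress mice. The two-sided exact permutation p was 0.10, the smallest possible, and 1 after adjustment over the 16 comparisons.

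The 0 values came from the trimean, which is 0 whenever fewer than 25% of the cells have a UMI. Plxnb2 had a UMI in 28.8%, 29.5% and 30.7% of control monocytes and in 22.0%, 20.7% and 23.4% of stress monocytes, so the groups fell on either side of that limit. Sema4c had a UMI in 41.1%, 30.0% and 46.2% of control ECs and in 40.3%, 24.6% and 37.5% of stress ECs. It was therefore the share of Plxnb2 that set the value to 0 in each stress mouse, and in stress replicate 2 that of Sema4c as well. With the mean over cells in place of the trimean, the values were 0.0051, 0.0031 and 0.0049 in control and 0.0026, 0.0017 and 0.0024 in stress mice (exact p = 0.10, adjusted 0.80). With each cell thinned to 1000 UMIs the trimean value was 0 in all 6 mice.

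**Figure D5:**
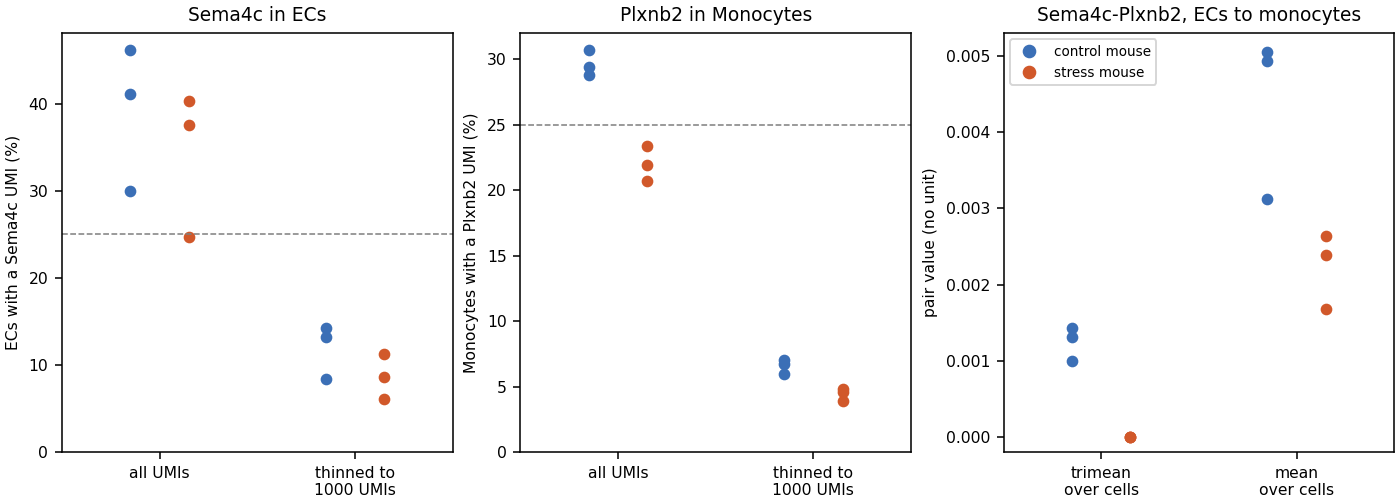
Left and middle, percent of ECs with a Sema4c UMI and of monocytes with a Plxnb2 UMI, with all UMIs and after thinning to 1000 UMIs per cell; the dashed line is the 25% below which a trimean is 0. Right, value of the pair Sema4c-Plxnb2 from ECs to monocytes by trimean and by mean over cells, where the trimean is 0 in the 3 stress mice and the means are 0.0017 to 0.0026 in stress and 0.0031 to 0.0051 in control mice.

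In the other direction, Sema4d-Plxnb2 from monocytes to ECs had values of 0.00097, 0.0017 and 0.0016 in control and 0.00080, 0.0014 and 0.0030 in stress mice (exact p = 0.90). Sema4a-Plxnd1 had 0, 0.0073 and 0.0060 against 0, 0.0078 and 0.0092 (exact p = 0.60), and Sema4a-Plxnb2 was above 0 in 4 of 6 mice (exact p = 0.60). The groups overlapped in these 3 pairs. The remaining 12 of the 16 comparisons were 0 in every mouse, since the ligand or the receptor was present in too few cells of its type.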

How the data were processed

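Orthotopic H22 liver tumors of 3 control and 3 stress mice were dissociated and sequenced as 10x Chromium libraries, 1 per mouse. The deposited matrices hold UMI counts per gene and cell, which the authors made with Cell Ranger on mm10 (versions 9.0.0 for control and 7.1.0 for stress files, per the file headers). Cell types and cluster numbers were those of the authors' deposited annotation. No other column of per-sample values was used.

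The members and gene lists were chosen with earlier results of these data known. UMI sums of a mouse and cell type were used where every mouse had at least 10 cells, filtered with filterByExpr, scaled by TMM and tested with edgeR 4.0.16 (glmQLFit and glmQLFTest, R 4.3.3), stress minus control, with Benjamini-Hochberg adjustment over all genes tested and a threshold of 0.05. Printed CPM are unscaled. TMM scaling moved stress relative to control by 0.14 on the log2 scale in tumor cells and by 0.03 in ECs. Doublets were called per library with Scrublet in scanpy 1.11.5 and were kept in the main tests. The paper describes its own removal of doublets with Scrublet, so the calls given here were made anew on the annotated cells. Shares of cells and pair values were compared by two-sided exact permutation tests (scipy 1.17.1). The scripts were tested on simulated counts with known fold changes. In droplet libraries depth limits low genes, and the ranges over mice carry both counting and biological spread.

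Genes were named by rule: all 9 members, list genes past the threshold in ECs, tumor cells or monocytes, and the 3 genes most like each member among those with a mean of at least 10 CPM and in no list. Alternatives were RLE scaling, no filter on low counts, DESeq2 1.42.0, a replicate block, leaving out doublets, a cluster or a mouse, and other forms of the pair value. Deviations of same-numbered monocyte sums had correlations of 0.48, 0.42 and 0.15, against -0.49 to 0.19 for differently numbered ones. The labels state no pairing of the mice. Levels between cell types and between clusters carry no test, since the annotation was made from these cells. Neutrophils and HSCs were not tested, having fewer than 10 cells in a mouse.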

Additional observations from a re-analysis of the deposited data

Results flagged for a closer look

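Sema6a stood on opposite sides of control in different cell types, which marked it for a closer look. All stress mice were above all control mice in ECs (679 to 957 CPM on average) and in monocytes (7.46 to 14.1 CPM), and all were below in NK/T cells (7.96 to 4.16 CPM, with 8.17, 8.75 and 6.95 CPM in control and 2.56, 5.56 and 4.36 in stress mice). Without the called doublets the log2 fold change in monocytes was 0.05, and the 7 EC markers there summed to 99.5 to 149.6 CPM in control and 146.04 to 195 in stress mice. The NK/T difference did not pass in edgeR (log2 fold change -0.81, adjusted p = 0.405). In the same NK/T sums the 7 EC markers were at 45.2 to 89.9 CPM in control and 56.4 to 78.7 in stress mice, with overlapping groups. In ECs, where Sema6a was highest, those markers had 5296 to 6756 and 7119 to 7473 CPM. The 6 DC markers in NK/T cells were at 53.1 to 61.5 CPM in control and 130.5 to 197 in stress mice. The part of EC or DC transcripts in the NK/T values of Sema6a was not tested. The effect in monocytes differed from that in ECs by 0.44 ± 0.21 (SE, edgeR interaction test with adjusted p = 0.633). The differences that involve NK/T cells were not tested. Plxnd1 likewise was above control in all stress mice in ECs (265 to 353 CPM) and below in all in M-MDSCs (2.34 to 1.19 CPM), where it was too low to be tested in edgeR. That difference was not tested either.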

How the results depend on the processing

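The tumor-cell calls of Plxnb2 and Sema4a were kept under all alternatives run. DESeq2 gave 1 member changed in ECs (Sema6a) where edgeR gave 0, and edgeR gave 3 calls in the other cell types in place of 2 without the filter on low counts (Plxnd1 in DCs). Without the called doublets, the EC log2 fold changes of Sema4a, Sema4d and Sema3f turned to -0.22, -1.70 and -0.053. Without cluster 16, an alternative chosen after seeing the data, those of Sema4d and Sema3f were -0.24 and -0.12, and DESeq2 gave -0.0010 for Sema4d. When 1 mouse was left out, members near 0 changed sign: in ECs Sema4a ranged from -0.028 to 0.71, Sema4d from -0.40 to 0.35 and Sema3f from -0.17 to 0.17, in tumor cells Sema6a from -0.23 to 0.53, Sema3f from -0.17 to 0.12 and Plxnb1 from -0.13 to 0.24, and in monocytes Sema4a from -0.073 to 0.58. With all UMIs the share of ECs with Sema6a was 3.46 percentage points lower in stress mice (difference -3.46), and -1.07 in only the cells of at least 1000 UMIs (added after seeing the data). The Sema4c-Plxnb2 difference was -0.0021 with the mean over cells, 0 thinned, and -0.00061 with the thinned mean, the last chosen after seeing the data. Of all settings compared, 438 were counted as the same, 25 as reversed in sign, 4 as moved and 2 as stronger (a call gained). For the fold change of a single member, the same meant an unchanged direction and call, also where the member was called in neither setting. For a count of calls it allowed a limited shift, which took in the 3 calls without the filter. For a share of cells it meant only the same sign, and for a pair value a shift under the larger group SD.

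The replicate block turned Sema6a in tumor cells to 0.043 and changed no call of a member. In monocytes, whose correlations are given above, it raised the genes called from 13 higher and 2 lower to 116 higher and 89 lower. It gave Plxnb2 an adjusted p of 0.063 in edgeR. In ECs the correlations were 0.57, 0.43 and 0.02, against -0.57 to 0.23 for differently numbered sums. There the block raised the genes called from 15 higher and 15 lower to 60 higher and 71 lower, with 0 members among them. DESeq2 called 166 higher and 202 lower. Plxnb1 had too few counts to be tested within any type but tumor cells, and was tested besides only in the interaction of tumor cells with ECs. The causes of these shifts were not tested.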

Other observations

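In DCs, 1 of 4 other semaphorins and 1 of 23 effectors tested passed, against 2.64% of all genes. Of the other plexins and neuropilins 0 of 4 passed, and of the partners 0 of 8. The naming rule did not cover the 2 genes that passed, and they were named after their values were seen. Sema7a, a membrane-anchored semaphorin known from immune cells, had 19.5, 22.9 and 41.9 CPM in control DCs and 51.2, 55.7 and 53.3 CPM in stress DCs (edgeR log2 fold change 1.02 and adjusted p = 0.049). Fyn, a Src-family kinase that acts downstream of plexins, had 95.6, 160.1 and 154.1 against 292, 317 and 249 CPM (1.15, edgeR adjusted p = 0.0093). The groups did not overlap for either gene. Scrublet called 19.5% of the DCs doublets, and without them neither gene passed: the log2 fold change was 0.69 for Sema7a and 0.78 for Fyn (edgeR adjusted p-values of 0.304 and 0.224). The calls in DCs fell from 224 higher and 54 lower of 10533 genes to 8 higher and 0 lower of 7280. In the same sums 6 NK/T markers went from 0 to 32.9 CPM in control to 43.8 to 88.2 CPM in stress mice and 6 DC markers from 1901 to 2501 to 3489 to 3770, and their part in both differences was not tested.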
